A study of Homo sapiens with 54 samples.

Results

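The HOX genes encode homeodomain transcription factors that give cells their position along the head-to-tail axis. They lie in 4 clusters, HOXA on chromosome 7, HOXB on chromosome 17, HOXC on chromosome 12 and HOXD on chromosome 2, and genes at the same place in different clusters share a paralogue number from 1 to 13. Within a cluster, genes with low numbers lie at the 3′ end and are used earlier and nearer the head, and genes with high numbers lie at the 5′ end and are used later and nearer the tail. In pluripotent cells the clusters are kept silent by Polycomb proteins, and fibroblasts and other body cells keep the HOX pattern of the place they came from. The genes described here are 38 of the 39 human HOX genes (10 HOXA, 10 HOXB, 9 HOXC and 9 HOXD genes). They were taken by name from the 4 clusters with no cut on a measured value, but with earlier results of these data known. Of these, 37 were matched to the array by RefSeq accession, through 41 of its 42405 probes, and HOXA6 had no matched probe. Where a gene had 2 probes (HOXA9, HOXA10, HOXB2 and HOXD9), the one with the higher mean signal over all arrays was read, and the other is given where the 2 disagree.

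The study asked whether FGFC, a chimera of FGF1 and FGF2, can stand in for basic FGF (bFGF) in the culture of human pluripotent stem cells. RNA was measured in 27 cultures, each on 2 one-colour arrays (54 in all) that were averaged and counted as 1 culture. H1 embryonic stem cells in E8 Medium, a defined medium used without feeder cells, were measured in 3 numbered experiments as a pre-culture and after 4 days with 100 ng/mL bFGF, with 100 ng/mL FGFC or with no FGF. In the titles, the pre-culture of experiment 2 is at passage 49 and its 4-day arms are at passage 59. The long-term systems each had 1 pre-culture, 1 bFGF culture and 1 FGFC culture. All pre-cultures were kept with bFGF, at the dose of their system. They were H1 in E8 Medium (30 days, 100 ng/mL, with the pre-culture of experiment 1), H1 in medium conditioned by mouse embryonic fibroblasts, MEF-CM (41 days, 5 ng/mL), KhES-1 embryonic stem cells on MEF feeder cells (30 days, 5 ng/mL), 201B7 induced pluripotent stem cells on MEF feeder cells (50 days, 10 ng/mL) and 253G1 induced pluripotent stem cells in E8 Medium (36 days, 100 ng/mL). Both induced lines were made from human dermal fibroblasts. A further culture, differentiated H1, was made from H1 of E8 Medium through embryoid bodies without added FGF and is 1 culture without a replicate. It differs from the pre-cultures in FGF, medium, growth as embryoid bodies and array slide as well as in differentiation, and these cannot be told apart. In the paper, embryoid bodies were grown in a medium with serum replacement and not in E8 Medium. Nothing in the labels says that the 3 experiments used separate thaws of H1, so the p-values measure the spread between these cultures only.

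A level below is the log2 signal of a probe minus the 75th percentile of its array, so that 0 is the 75th percentile. A gene counted as detected in a culture when its probe was well above background on both arrays. Levels of different genes come from different probes and are not compared. From 56.0% to 79.2% of the probes were well above background per array, and the 75th percentile of signal was 182 and 234 on the arrays of the 201B7 pre-culture against 504 to 913 on the other 52. Duplicate arrays differed by a median of 0.17 for detected HOX genes and 0.30 for HOX genes marked on neither array. The lowest HOX reading was -8.56, and the height of unmarked readings moved with the background of each array. In these whole cultures, fewer cells that use a gene and less of its RNA per cell cannot be told apart.

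HOX detection separated the cultures into those with almost none and 4 with many more. Among the 37 genes, 25 were detected in at least 1 culture and 12 in none, and 4 of the 12 (HOXB7, HOXC12, HOXD1 and HOXD10) were marked on no array at all. HOXA9 and HOXA10 were detected in all 27 cultures through their brighter probes and are set apart below, which leaves 35 genes. Of these 35, differentiated H1 had 17, and the 201B7 cultures had 14 (pre-culture), 13 (bFGF) and 12 (FGFC). The other 23 cultures had between 0 and 6, and 10 of them had none. Over the 27 cultures, 54.0% to 75.6% of all probes were detected per culture.

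**Figure D1:**
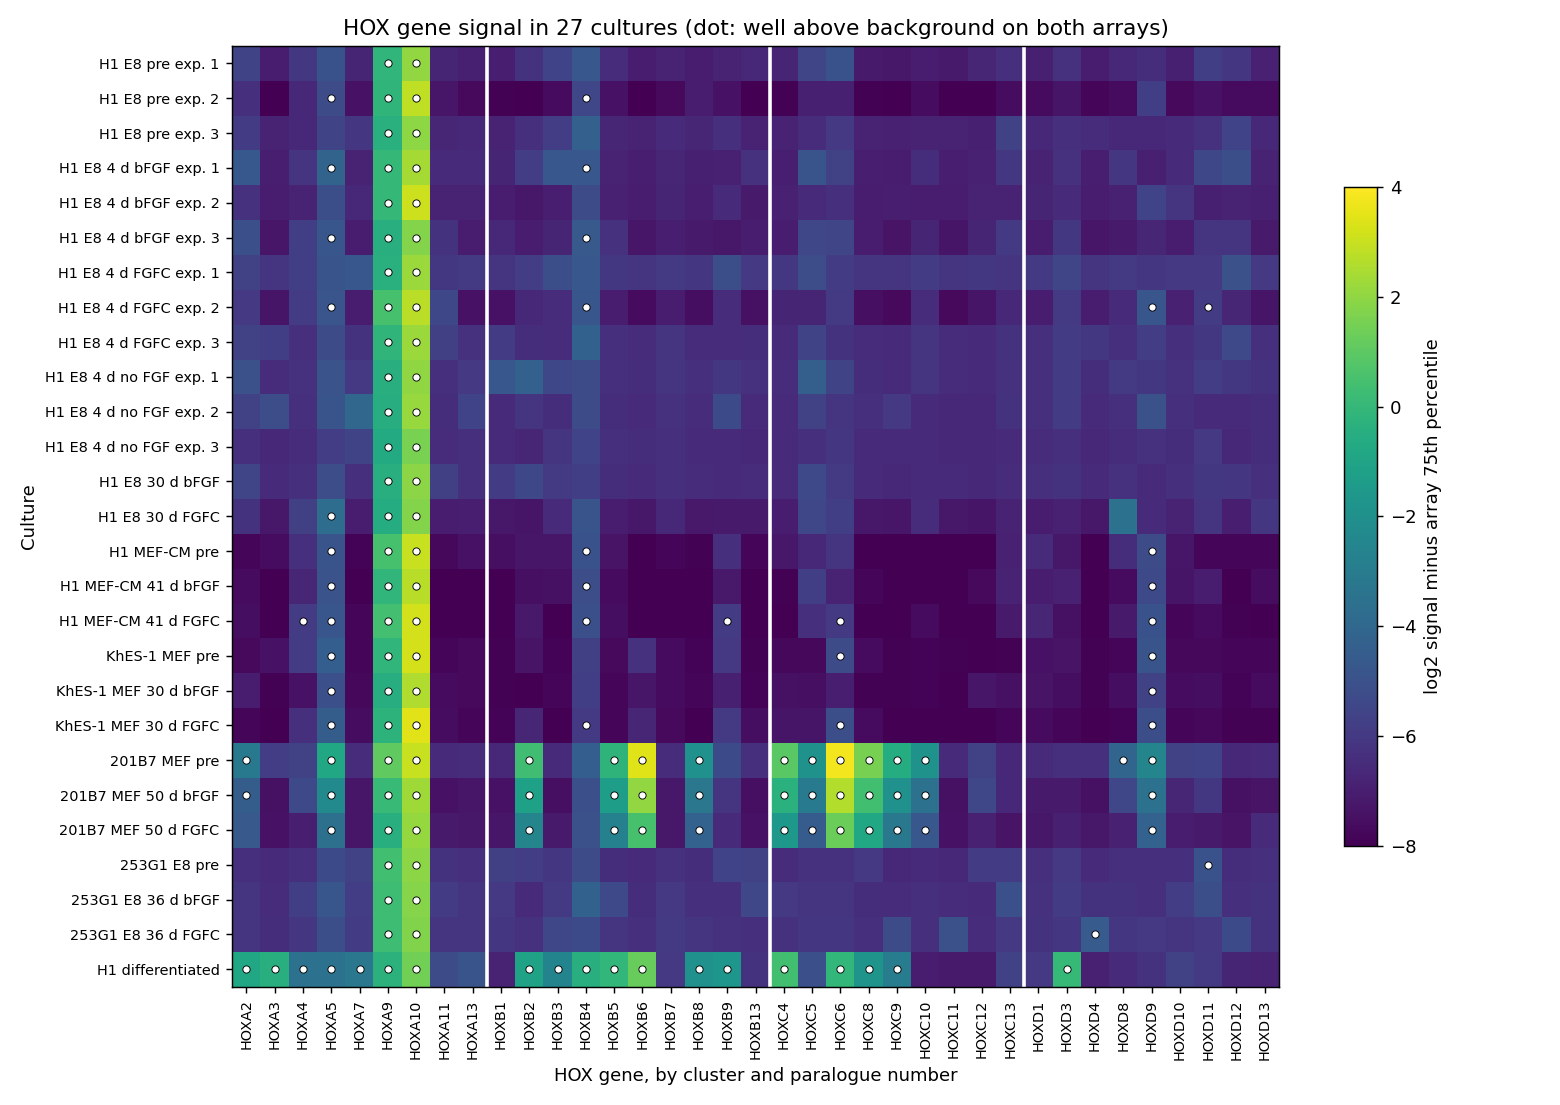
Level of 37 HOX genes (columns, by cluster and paralogue number, white lines between clusters) in 27 cultures (rows), as log2 signal minus the 75th percentile of the array; dots mark genes well above background on both arrays. Differentiated H1 and the 3 cultures of 201B7 carry 12 to 17 dots apart from the HOXA9 and HOXA10 columns, and no other culture has more than 6.

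Differentiated H1 had less POU5F1 and NANOG than the pre-cultures and expressed HOX genes of all 4 clusters up to paralogue number 9. POU5F1 was at 2.73 there against 8.00 to 8.11 in the 3 H1 pre-cultures, and NANOG at -0.22 against 4.02 to 4.39. Both were still well above background on both arrays, as were SOX2, LIN28A and ZFP42, while PRDM14 was not. Detected were HOXA2, HOXA3, HOXA4, HOXA5 and HOXA7, HOXB2, HOXB3, HOXB4, HOXB5, HOXB6, HOXB8 and HOXB9, HOXC4, HOXC6, HOXC8 and HOXC9, and HOXD3. That is 5 of 7 HOXA genes, 7 of 10 HOXB genes, 4 of 9 HOXC genes and 1 of 9 HOXD genes. By position it is 5 of 7 genes of groups 1 to 3, 12 of 17 of groups 4 to 9 and 0 of 11 of groups 10 to 13. Well above background on both arrays of this culture were 64.6% of all probes. All 17 were at least 2-fold above the mean of the 3 pre-cultures, against 11.3% of all 42405 probes that met this rule, and 0 of the 37 HOX genes were at least 2-fold lower, against 10.7% of probes. With 1 differentiated culture there is no test.

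In the HOXA cluster the genes of low number differed most from the pre-cultures. HOXA2, the HOX gene with the most anterior limit in the hindbrain, was at -0.85 in differentiated H1 and at -6.37, -5.88 and -5.53 in the pre-cultures, which is at least 19.5-fold higher, since no pre-culture array was well above background. Folds written "at least" hold for the main processing only, and over the alternatives tried the log2 difference of HOXA2 was as low as 2.38. HOXA3, which acts in the pharyngeal arches, was at -0.41 against -7.96 to -6.83, at least 26.4-fold higher. HOXA7 was at -3.24 (arrays -3.59 and -2.90), at least 3.70-fold higher. HOXA4 and HOXA5, both at -3.49, had been marked on 1 and 3 of the 6 pre-culture arrays. Their measured log2 differences of 2.92 and 1.75 were 0.55 and 0.32 with normexp background correction, and that of HOXA7 was 0.95, all 3 below the 2-fold rule. HOXA11 and HOXA13, the genes of distal limb and posterior body, were at -5.28 and -4.89, and neither was well above background on both arrays.

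In the HOXB cluster the detected run went from HOXB2 to HOXB9 with 1 gap. HOXB6 was at 1.22 against -7.95 to -6.84 in the pre-cultures, at least 81.5-fold higher, and HOXB5 at -0.05 against -7.42 to -6.49. HOXB4, which promotes expansion of blood progenitors, was at -0.49 against -5.45, -4.76 and -4.34, and 4 of 6 pre-culture arrays had marked it. Both probes of HOXB2, a gene of the hindbrain, were higher: 1 was at -1.07 (at least 16.7-fold) and the other at 2.23 (at least 165-fold). HOXB3 (-2.58), HOXB8 (-1.91) and HOXB9 (-1.72) were at least 5.86-fold, 9.34-fold and 10.7-fold higher. The duplicate arrays of HOXB8 (-2.71 and -1.11) and HOXB9 (-2.17 and -1.26) lay further apart than those of the other detected genes. HOXB7, between HOXB6 and HOXB8, was at -6.02 and marked on no array. HOXB1 (-6.86) and HOXB13 (-6.25), at the ends of the cluster, were not detected either.

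HOXC and HOXD gave shorter sets. HOXC4 was at 0.39 against -7.93 to -6.78 (at least 45.9-fold higher), HOXC6 at -0.08 against -6.96 to -5.00 (at least 32.4-fold), HOXC8 at -1.78 (at least 10.2-fold) and HOXC9 at -2.97 (at least 4.47-fold). HOXC5, which shares its annotated first base with HOXC4 and HOXC6, was at -5.08 and not detected. HOXC10, HOXC11 and HOXC12 lay from -7.12 to -7.02. HOXD3 was the only detected HOXD gene, at 0.03 against -7.31 to -6.30 (at least 35.9-fold higher), while HOXD1, HOXD4 and HOXD8 to HOXD13 lay from -6.89 to -5.64.

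**Figure D2:**
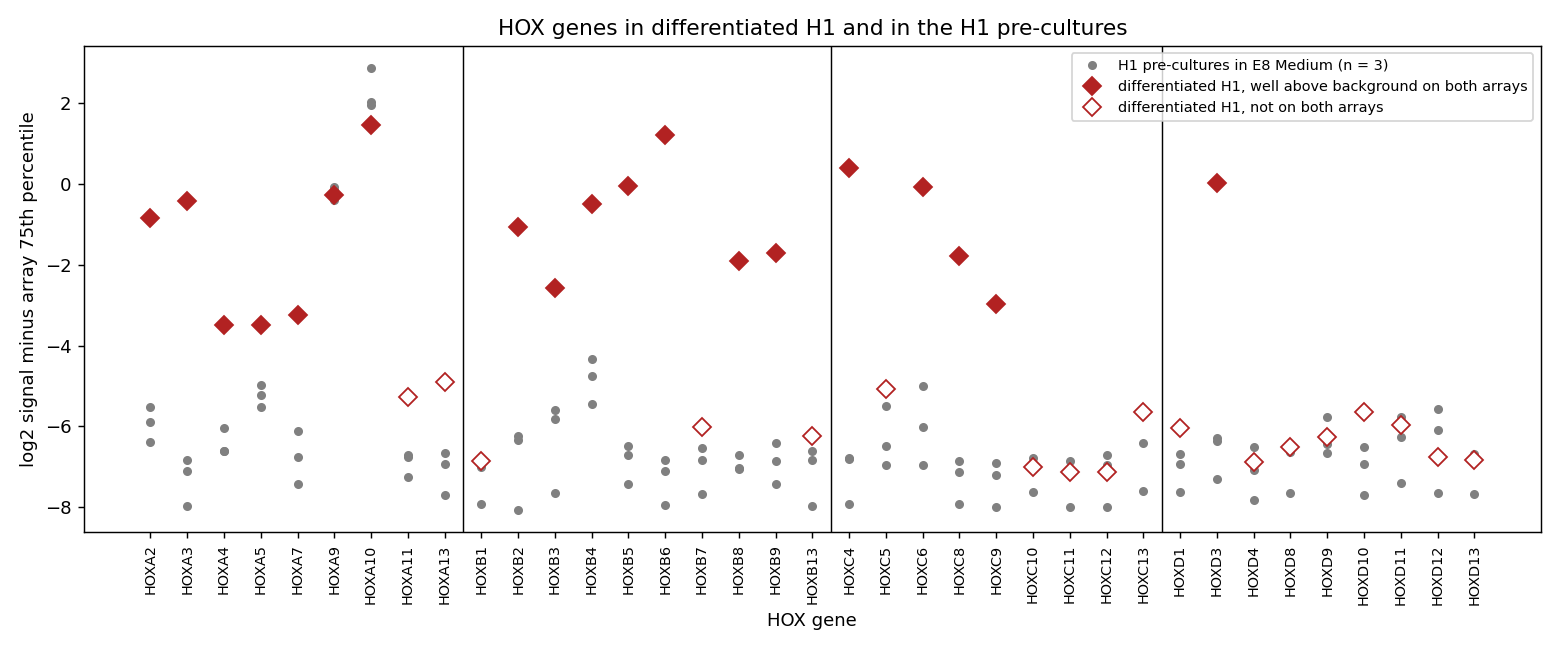
Level of 37 HOX genes in differentiated H1 (diamonds, 1 culture, filled where well above background on both arrays) and in the 3 H1 pre-cultures in E8 Medium (grey points), as log2 signal minus the 75th percentile of the array; vertical lines part the clusters. Filled diamonds above the grey points run from HOXA2 to HOXA7, HOXB2 to HOXB9 and HOXC4 to HOXC9, with HOXD3 alone at right, HOXA9 lies among the pre-cultures and HOXA10 below them.

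Promoter sequence, from 250 bases before to 50 after the annotated start, was given by RefSeq on GRCh38.p14 for 20 of the 38 genes (26 distinct sequences). CG pairs, the sites of DNA methylation, are in capitals. HOXA2 was detected in differentiated H1. HOXD3 and HOXD4 are neighbours of which the first was detected there and the second was not, and HOXC4 and HOXC5 share 1 entry and were both detected in 201B7.
HOXA2, chr7:27102634-27102933, minus strand: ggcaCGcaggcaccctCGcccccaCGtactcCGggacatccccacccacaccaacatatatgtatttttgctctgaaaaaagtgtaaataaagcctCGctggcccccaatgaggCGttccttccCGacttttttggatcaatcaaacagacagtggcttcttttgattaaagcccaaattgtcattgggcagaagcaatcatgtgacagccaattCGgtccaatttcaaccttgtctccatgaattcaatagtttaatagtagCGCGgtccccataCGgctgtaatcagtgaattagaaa
HOXC4 and HOXC5, chr12:54016638-54016937, plus strand: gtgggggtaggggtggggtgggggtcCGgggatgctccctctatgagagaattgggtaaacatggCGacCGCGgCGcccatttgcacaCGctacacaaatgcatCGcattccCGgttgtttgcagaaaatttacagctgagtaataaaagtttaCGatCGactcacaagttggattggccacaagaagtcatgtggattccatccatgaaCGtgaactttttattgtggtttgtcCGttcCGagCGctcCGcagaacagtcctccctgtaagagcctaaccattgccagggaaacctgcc
HOXD3, chr2:176157057-176157356, plus strand: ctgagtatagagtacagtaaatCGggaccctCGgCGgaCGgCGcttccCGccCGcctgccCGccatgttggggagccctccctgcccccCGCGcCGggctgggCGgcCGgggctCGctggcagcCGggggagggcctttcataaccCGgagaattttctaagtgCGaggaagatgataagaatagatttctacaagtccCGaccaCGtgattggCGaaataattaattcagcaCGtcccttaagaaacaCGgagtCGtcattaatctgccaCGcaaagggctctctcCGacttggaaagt
HOXD4, chr2:176151300-176151599, plus strand: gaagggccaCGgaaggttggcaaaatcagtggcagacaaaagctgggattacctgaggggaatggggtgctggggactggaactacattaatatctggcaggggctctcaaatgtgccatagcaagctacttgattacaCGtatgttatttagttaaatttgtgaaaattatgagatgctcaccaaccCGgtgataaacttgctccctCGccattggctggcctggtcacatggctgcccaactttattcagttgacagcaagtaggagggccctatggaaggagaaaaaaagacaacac
HOXA2 holds 11 CG pairs, the shared HOXC4 and HOXC5 sequence 15, HOXD3 25 and HOXD4 4, beside a median of 14 over 34796 promoters and 22.5 over the 26 HOX sequences. Searched on both strands, TGATTNAT, a site type bound by PBX and HOX proteins together, was in 2 of the 26 (HOXA2 and HOXD11) and in 2.82% of all promoters. TTTATG, a CDX site type, was in 3 of 26 and in 10.6% of all, and AGGTCA, the repeat unit of retinoic acid receptor sites, in 0 of 26 and in 13.8% of all. A match is a run of letters and not a measured site.

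Genes that act with or before HOX proteins were also measured in differentiated H1. MEIS1 and MEIS2, homeodomain partners of HOX proteins, were at 0.94 and 2.06, against -6.75 to -5.67 and -7.36 to -6.55 in the pre-cultures. CDX2, which switches on posterior HOX genes in the embryo, was at -1.02 against -7.48 to -6.80, while CDX4 was at -6.35 and marked on no array. RARB, a retinoic acid receptor and itself a retinoic acid target, was at -1.08 against -5.21 to -4.73. The culture held several cell types by its markers: all 11 fibroblast markers with a probe were detected, against 5 in each pre-culture (LUM was at 3.88 and COL3A1 at 3.07), as were TTR (5.14) of liver and CGA (3.87) of trophoblast. Which cells carried the HOX transcripts was not tested.

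A 4-day culture without FGF changed no HOX gene past the test. In limma over the 12 H1 cultures, 0 of 37 HOX genes were higher and 0 lower in no FGF than in bFGF at an adjusted p under 0.05, where 5.54% of all probes were higher and 7.19% lower. Against FGFC, the counts were again 0 and 0, with 4.72% and 6.07% of all probes. These comparisons share the no-FGF cultures. With the experiment as a replicate block, 1 HOX gene passed against bFGF, HOXD9 (0.63, adjusted p = 0.048), which was detected in neither arm. At an unadjusted p under 0.05, 1 HOX gene differed from bFGF (HOXA7) and 3 from FGFC (HOXA9, HOXA11 and HOXB4), where 25.3% and 22.8% of probes did. Apart from HOXA9 and HOXA10, no HOX gene was detected in any of the 3 no-FGF cultures, and 7 of 210 array readings were well above background, in 6 genes. With bFGF 13 and with FGFC 18 of 210 readings were. HOXA5 and HOXB4 were detected in experiments 1 and 3 with bFGF, and HOXA5, HOXB4, HOXD9 and HOXD11 in experiment 2 with FGFC. Of all probes, 58.4% to 59.9% were detected without FGF, 65.3% to 69.4% with bFGF and 55.5% to 74.7% with FGFC.

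HOXA7 had the lowest p against bFGF, and its readings rest on single arrays. It was at -6.03, -4.02 and -5.53 without FGF, at -6.80, -6.65 and -7.06 with bFGF and at -4.75, -7.04 and -6.26 with FGFC, in experiments 1, 2 and 3. It was marked on 1 of 2 arrays in experiments 2 and 3 without FGF, and in experiment 1 with FGFC, so its readings without FGF lay above those with bFGF and overlapped those with FGFC (limma adjusted p = 0.11 against bFGF). The 2 arrays of experiment 2 without FGF read -1.31 and -6.74. The first of them also stood apart from its duplicate for HOXA3 (-3.51 against -6.86), HOXB9 (-3.77 against -6.83) and HOXA13 (-4.44 against -6.74). HOXB6, silent in all 12 cultures, was at -6.43, -6.58 and -6.42 without FGF and between -7.29 and -6.98 with bFGF, and no array was marked. Fitted on the 6 cultures of no FGF and bFGF alone, 10 HOX genes passed the test, HOXB6 among them. All 10 were higher without FGF by 0.42 to 0.75 on the log2 scale, and none was well above background. The share of all probes passing in that fit is not given here, so the count is not read as a HOX result.

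HOX partners and enzymes of retinoic acid, which switches on anterior HOX genes, did change over the same 4 days. Of 8 HOX cofactors with a probe, 3 were higher and 0 lower than with bFGF. MEIS1 was at -4.31, -2.63 and -2.55 without FGF and at -4.75, -5.80 and -5.63 with bFGF (difference 2.23 ± 0.48, SE; limma adjusted p = 0.010). MEIS2 was at -4.39, -1.37 and -1.34 against -5.57, -6.53 and -7.06 (4.02 ± 0.73, adjusted p = 0.0039). For both, experiments 2 and 3 were well above background and experiment 1 was not on both arrays. MEIS3 rose by 0.80 ± 0.22 (adjusted p = 0.037, and 0.055 with the replicate block) and was detected in every culture.

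Of 12 upstream regulators, 4 were higher and 1 lower than with bFGF, beside the 5.54% and 7.19% of all probes, and 4 were higher and 0 lower than with FGFC. CYP26A1, which breaks down retinoic acid, was at 5.12, 3.67 and 3.91 without FGF and at -0.56, 1.17 and 0.14 with bFGF (3.98 ± 0.50, adjusted p = 0.00040). ALDH1A2, which makes retinoic acid, was at -5.25, -1.53 and -1.32 against -6.38, -6.41 and -6.75 (3.81 ± 0.92, adjusted p = 0.019), with experiment 1 again below detection. GDF11, a ligand that sets posterior HOX limits, rose by 0.77 ± 0.18, and TBXT, marked on no array without FGF, passed the test between readings at background. CDX4, a posterior HOX activator, fell by 1.09 on the log2 scale against bFGF, from readings of which 2 of 6 were marked, and did not pass against FGFC (-0.71, adjusted p = 0.13). CDX2 was at -5.72, -5.92 and -6.52 without FGF and did not pass.

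Some regulators of HOX chromatin also changed. Among 6 genes of Polycomb repressive complex 2, EZH2 rose by 0.91 ± 0.24 and JARID2 fell by 0.82 on the log2 scale against bFGF. Against FGFC neither passed the test, and both did with the experiment as a replicate block (limma adjusted p = 0.013 and 0.040). Among 6 trithorax and demethylase genes, KDM6B, an eraser of the Polycomb mark, was higher (-5.79, -3.40 and -3.52 against -6.83, -6.72 and -7.05) and was detected in experiments 2 and 3. Of 12 genes flanking the clusters, 2 beside HOXA fell, SKAP2 by 1.37 and SNX10 by 1.29, and with the replicate block SKAP1 (-0.73) and LNPK (0.57) passed as well (adjusted p = 0.029 and 0.028). Against FGFC, the flanking gene CBX5 passed only with the replicate block (0.60, limma adjusted p = 0.043). None of 5 non-coding RNAs of the clusters passed the test. Of 7 anterior neural markers, which mark tissue in front of the HOX domain, 6 were higher (median of the list 4.41), and of 7 hindbrain and spinal cord markers 1 was higher, PAX3 (median 0.63).

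**Figure D3:**
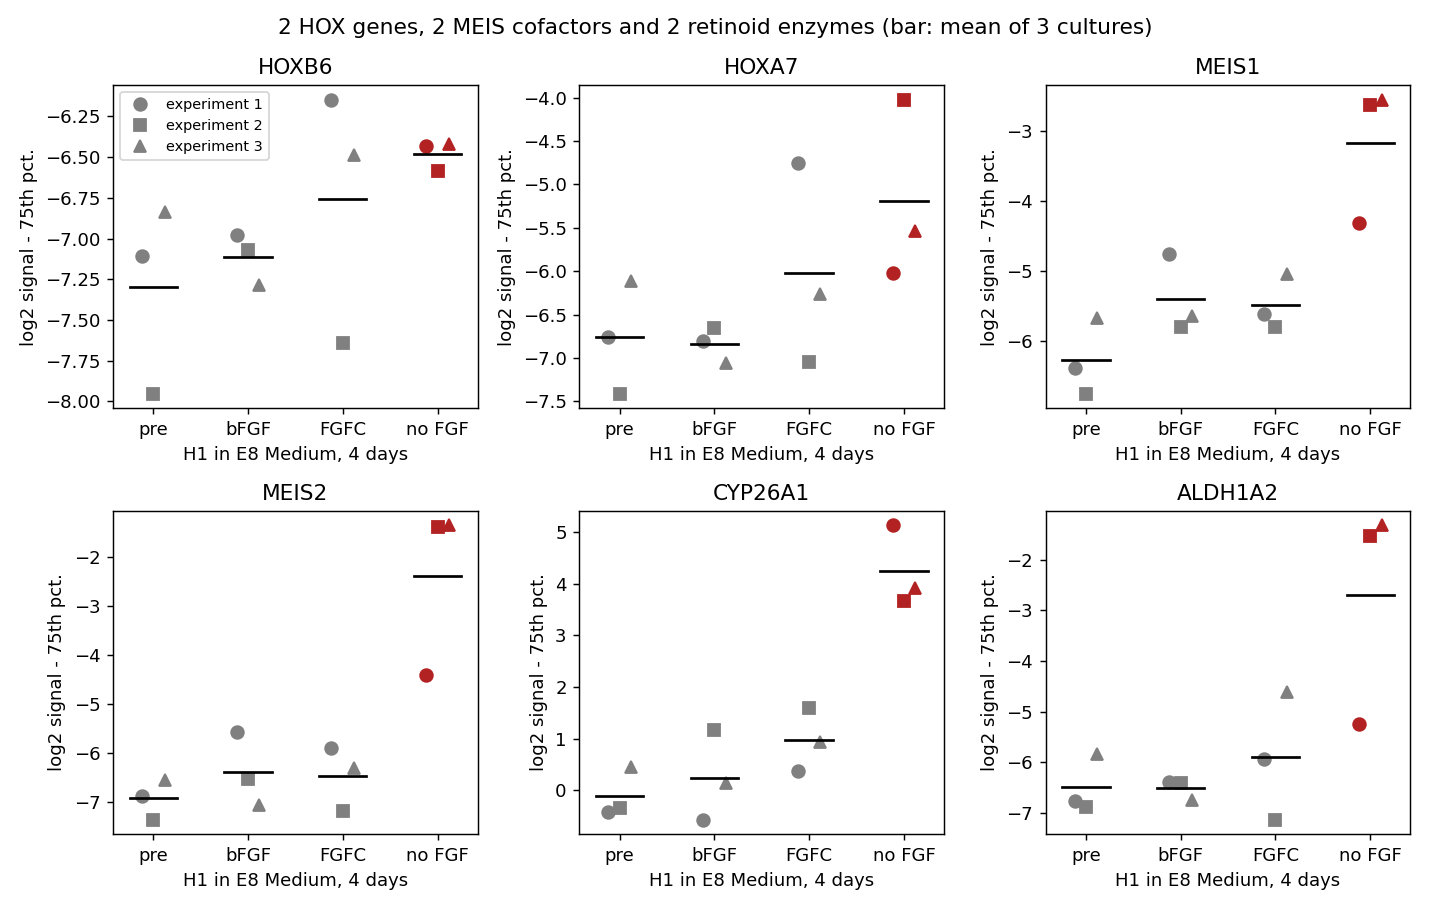
Level of HOXB6, HOXA7, MEIS1, MEIS2, CYP26A1 and ALDH1A2 in H1 cultures in E8 Medium, as log2 signal minus the 75th percentile of the array, for the pre-culture and after 4 days with bFGF, FGFC or no FGF; symbols are the 3 experiments and bars their mean, and each panel has its own vertical scale. MEIS1, MEIS2 and ALDH1A2 without FGF (red) stand well apart from the other arms in experiments 2 and 3, CYP26A1 in all 3, and HOXB6 stays below -6 throughout.

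FGFC and bFGF gave no HOX difference past the test. After 4 days, 0 of 37 HOX genes were higher (0% of all probes) and 0 lower (0% of all probes) with FGFC in limma, and at an unadjusted p under 0.05, 1 HOX gene (HOXA11, undetected in both arms) and 2.98% of probes differed. Over the 5 long-term systems, with the system as a block, again 0 were higher and 0 lower among HOX genes and among all probes (0% each). At an unadjusted p under 0.05, 5 HOX genes (HOXB5, HOXC12, HOXC13, HOXD10 and HOXD11) and 5.98% of probes differed.

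Within single systems, where each arm is 1 culture and no test is possible, 4 systems had 1 HOX gene at least 2-fold higher with FGFC. In H1 in E8 Medium, where 0.665% of probes met this rule, it was HOXA5 (-3.72 against -5.15). In MEF-CM, with 0.58% of probes, it was HOXB9 (-5.92 against -7.19). In KhES-1, with 0.394%, it was HOXC6 (-5.12 against -6.99), and in 253G1, with 0.344%, HOXD4 (-4.53 against -6.23). All 4 were near background, and the KhES-1 pre-culture had HOXC6 at -5.27. HOXD8 in H1 after 30 days with FGFC was at -3.49 but was marked on only 1 of 2 arrays.

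The 201B7 line on feeder cells was the only undifferentiated system with a broad HOX pattern, and it held genes of groups 2 to 10. In limma over the 15 cultures of the 5 systems, 14 of 37 HOX genes were higher in 201B7 than in the mean of the other 4 systems (11% of all probes) and 0 were lower (8.7% of probes). Of the 14, 12 were detected in all 3 cultures of 201B7, a rule that 8.81% of probes met. They were HOXA5, HOXB2, HOXB5, HOXB6, HOXB8, HOXC4, HOXC5, HOXC6, HOXC8, HOXC9, HOXC10 and HOXD9. HOXA2 passed with detection in 2 of 3 cultures, and HOXC12 passed while undetected. Well above background on all 6 arrays were 60.3% of all probes. The 3 cultures of a system were a pre-culture, a bFGF culture and an FGFC culture of the same line, and are not independent. The p-values between systems, here and below, therefore describe the spread between these cultures only, and not between lines. No other system shared the line or the slides of 201B7, so the test does not separate line, medium and slide.

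The HOXC cluster was the most complete, with 6 neighbours from HOXC4 to HOXC10 out of 9 genes. HOXC6, a trunk gene, was at 3.79 in the pre-culture, 2.62 with bFGF and 1.32 with FGFC, and in the 12 other cultures at -6.99 to -5.00 (median -6.03; measured difference 8.54 ± 0.41, SE; adjusted p = 5.1e-07). Of the 24 other arrays 6 marked it, the rest being at background, and the difference was 5.52 to 9.29 over the alternatives tried. HOXC8, a gene of the thoracic region, was at 1.53, 0.36 and -0.78 against -8.45 to -6.03, at least 48.7-fold higher over the 3 cultures. HOXC4 was at 0.92, -0.35 and -1.60 (at least 29.7-fold). HOXC9 (-0.58, -1.92 and -3.19), HOXC5 (-1.85, -3.08 and -4.51) and HOXC10 (-1.89, -3.50 and -4.73) followed the same order. HOXC11, HOXC12 and HOXC13, further 5′, were detected in none of the 3.

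Of the HOXB genes, HOXB6 was at 3.40, 2.07 and 0.50 in pre-culture, bFGF and FGFC against -8.41 to -6.30 elsewhere (measured difference 9.10 ± 0.38, adjusted p = 2.5e-07). It was at background on all but 1 of the 24 other arrays, and the difference was 5.39 to 9.81 over the alternatives tried. HOXB5 was at -0.22, -1.32 and -2.72, HOXB2 at 0.30, -1.13 and -2.54 (at least 17.3-fold) and HOXB8 at -1.92, -3.23 and -4.22 (at least 4.31-fold). HOXB3, HOXB4 and HOXB7, which lie among them, were detected in none of the 3 cultures, although HOXB4 was marked on 1 array of each. The second HOXB2 probe was at -3.29 and -5.06 in pre-culture and bFGF, and its difference from the other systems was 1.20 against 5.68 for the first probe, although both probes were far above background in differentiated H1. From HOXA and HOXD came HOXA5 at -0.85, -2.32 and -3.57 against -5.30 to -3.72, and HOXD9 at -2.52, -3.48 and -4.21 against -6.52 to -4.86. The second HOXD9 probe disagreed, at -5.82, -7.50 and -7.34 in 201B7, and was marked on no array there. Its difference from the other systems was 0.087 (limma adjusted p = 0.88), so HOXD9 rests on 1 probe. HOXA3, HOXA4, HOXA7 and HOXD3, detected in differentiated H1, were not detected in 201B7.

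All 12 genes were highest in the pre-culture and lowest with FGFC. From pre-culture to bFGF they differed by -1.61 to -0.96 (median -1.29), and from bFGF to FGFC by -1.57 to -0.73 (median -1.26). Over the 25558 probes detected in all 3 cultures the medians were 0.026 and -0.0039. At least 2-fold lower with FGFC than with bFGF were 10 HOX genes, against 2.56% of all probes. Each value is 1 culture, so this order has no test, and the pre-culture lay on another slide than the 2 arms.

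A fibroblast marker moved in the same order. DCN, a matrix proteoglycan of fibroblasts, was at 7.08, 6.28 and 4.85 in 201B7, so that it fell by 0.80 and 1.43, and its second probe fell by 0.95 and 1.59. MEIS1 was at 0.06, -0.66 and -2.04. Of 11 fibroblast markers with a probe, 6, 7 and 6 were detected in the 3 cultures, beside 5 to 8 in the other 12, and their summed level (linear, in units of the 75th percentile) was 256, 143 and 76.3, beside 39.4 to 69.2. Without DCN the sum was 121, 65.7 and 47.5, beside 39.1 to 69.2, so that the bFGF and FGFC cultures lay within the range of the other systems. COL1A1 was at 4.89, 4.11 and 3.82, while COL3A1, LUM and FBN1 were marked on no array of 201B7. In KhES-1, also on feeder cells, DCN was at -2.09, -4.41 and -4.38, and HOXC6, HOXB6 and HOXC8 were no higher than -5.12, -6.30 and -7.65. The pluripotency genes POU5F1 (8.59 to 8.71) and NANOG (3.81 to 4.32) held their level in all 3 cultures of 201B7. The part of feeder cell RNA, or of other cells in the dish, in the HOX values of 201B7 was not tested.

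**Figure D4:**
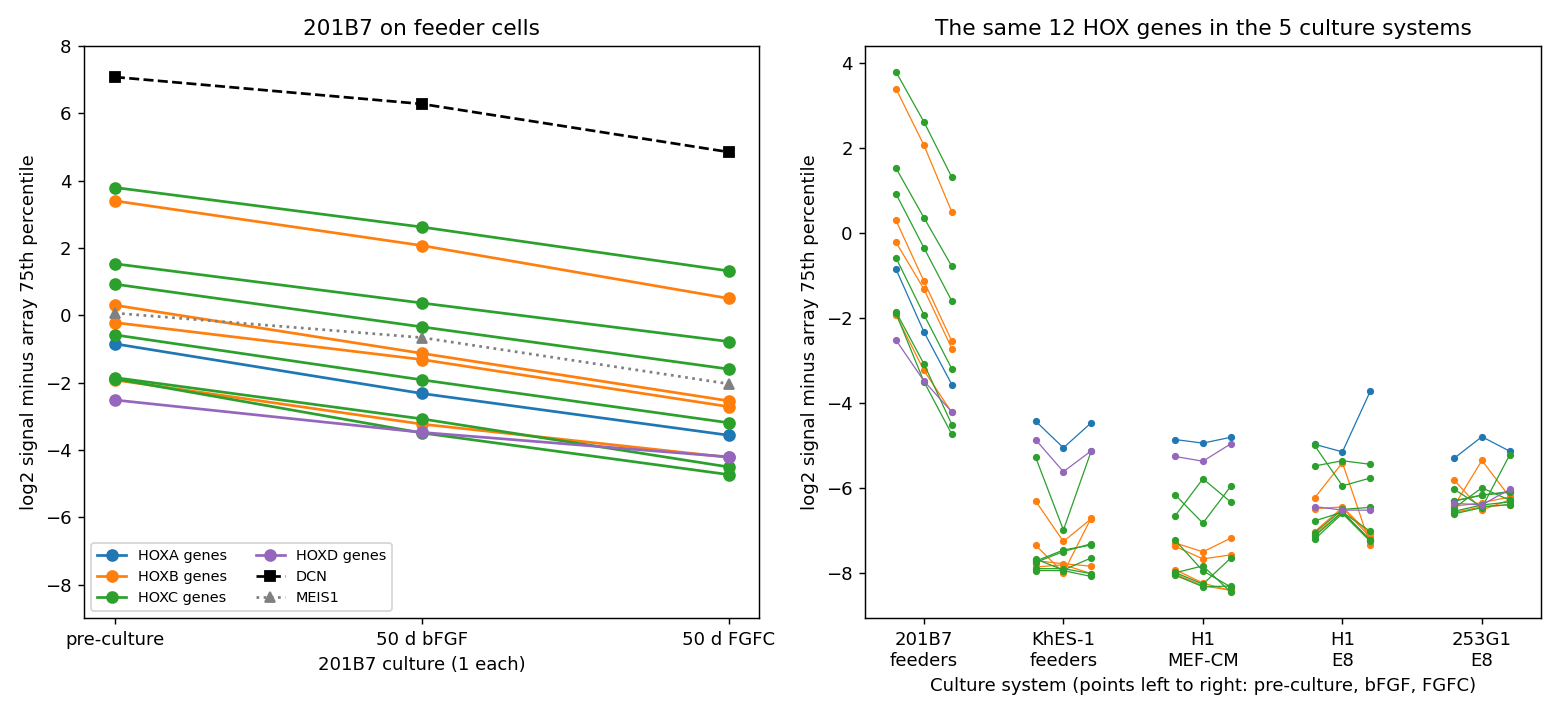
Left, levels of the 12 HOX genes detected and higher in 201B7, with DCN and MEIS1, in the pre-culture and after 50 days with bFGF or FGFC (1 culture each, lines join the same probe); right, the same 12 genes in the 5 culture systems. Levels are log2 signal minus the 75th percentile of the array. Every line at left descends from pre-culture to FGFC, and outside 201B7 no point lies above -3.72.

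The other lines and media had no such set. 253G1, the other fibroblast-derived line, had 1 detected gene in its pre-culture (HOXD11), 0 with bFGF and 1 with FGFC (HOXD4) of 35. H1 in MEF-CM had 3, 3 and 6, with HOXA5, HOXB4 and HOXD9 in all 3 cultures and HOXA4, HOXB9 and HOXC6 added with FGFC. KhES-1 had 3, 2 and 4, with HOXA5 and HOXD9 in all 3, where 64.8% to 67.4% of all probes were detected. HOXA5 and HOXD9 in these systems lay between -5.62 and -4.42, and the second HOXD9 probe was detected in no culture. H1 in E8 Medium had 0, 0 and 1.

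Many HOX genes that were not detected also passed the test between systems. In MEF-CM, 26 of 37 were lower (24.5% of all probes), in KhES-1 31 were lower (40.9% of probes), and in 253G1 18 were higher (23.6% of probes). The share of probes detected per culture was 73.2% to 75.6% in MEF-CM and 54.0% to 56.2% in 253G1. None of these genes was detected in every culture of its higher side.

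HOXA9 and HOXA10 were read as present everywhere by 1 probe and nearly nowhere by the other. The brighter HOXA9 probe was at -0.67 to 1.07 in the 26 cultures other than differentiated H1 and at -0.27 in that culture. The other HOXA9 probe was detected in differentiated H1 alone, at -2.95, at least 4.55-fold above the pre-cultures. The brighter HOXA10 probe was at 1.60 to 3.45 in the 26 cultures and 1.47 in differentiated H1, and the other was detected in no culture. Between systems, the brighter HOXA10 probe was the single HOX gene past the test and detected throughout the higher side in 4 comparisons. It was lower in H1 in E8 Medium (difference -0.68; 5.01% of probes met the rule) and in 253G1 (-0.79; 7.52%), and higher in MEF-CM (0.64; 17%) and KhES-1 (0.79; 12.9%). Its second probe differed by 0.56, 1.20, -1.15 and -0.79 in the same order, each time with the opposite sign and at background.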

How the data were processed

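RNA of 27 cultures was measured on 54 one-colour Agilent arrays. The authors deposited spot intensities from Agilent Feature Extraction 10.7.3.1 (grid build hg19), of which the processed signal, background-subtracted and not scaled between arrays, was used. Spots marked as outliers (266 to 623 per array) and control spots were left out, a floor of 1 was set, spots sharing a probe were averaged as log2 values, and each of the 42405 probes was expressed relative to the 75th percentile of its array. No probe was saturated. The scanner mark for well above background had to hold for a fraction of 0.5 or more of a probe's spots. RefSeq accessions gave 25715 probes a symbol (GRCh38.p14 names). Limma 3.58.1 in R 4.3.3 (lmFit, eBayes, Benjamini-Hochberg over all probes, threshold 0.05) compared the arms of H1 over 12 cultures without a replicate block, FGFC with bFGF over 10 long-term cultures with the system as a block, and each of 5 systems with the mean of the other 4 over 15 cultures. Other comparisons had 1 culture per arm and took a 2-fold difference, with the higher side well above background on both arrays. Folds written "at least" set the higher side against a per-array limit, the larger of the probe's reading and the dimmest reading marked above background. They hold for the main processing only. Over the alternatives, log2 differences in differentiated H1 went as low as 3.14 (HOXA3), 4.91 (HOXB6) and 3.22 (HOXD3), below these folds. In 201B7 they went as low as 3.88 (HOXC8) and 2.58 (HOXB2), also below them. HOX genes detected in at least 1 culture or past a test are given with values.

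The number of cultures limits the precision, most of all near background. In simulated data with 200 changed probes, limma found 22% of probes changed by 1 and 86% of those changed by 2 on the log2 scale for no FGF against bFGF, and 64% and 96% for 201B7 against the other systems, over 42405 probes. Normexp used the deposited median signals, since no mean signal was given. Python 3.11.15, numpy 2.4.6, pandas 2.3.3 and matplotlib 3.10.9 were used. HOX genes were taken by name, and the choice of these genes and of the other lists was made with earlier results of these data known. The titles give the 4-day arms of an experiment 1 passage number, so the arms can be paired by experiment. The main 4-day fit did not use this pairing. Values with the experiment as a replicate block are given where they change the call of a HOX gene, and for some of the other genes. Deviations of same-numbered cultures correlated by -0.16 to 0.52 (median 0.19, 18 values). Of the 39 HOX genes, 1 is not reported here.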

Additional observations from a re-analysis of the deposited data

Results flagged for a closer look

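Signal appeared in second probes of HOX genes, which did not set the level read for the gene, where the H1 pre-cultures had none well above background. The second HOXA9 probe was well above background on both arrays of differentiated H1, at -2.95. The second HOXB2 probe was so in differentiated H1 (2.23), in the pre-culture (-3.29) and bFGF culture (-5.06) of 201B7, and in the KhES-1 pre-culture (-4.29) and its bFGF (-4.44) and FGFC (-5.40) cultures, where the first HOXB2 probe was not detected. In KhES-1 against the other 4 systems the second HOXB2 probe passed limma's test (difference 1.45, adjusted p = 0.0072).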

How the results depend on the processing

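The 12 HOX genes detected and higher in 201B7 kept their direction and passed the test in each of 15 alternatives, but their sizes fell with normexp background correction (HOXB6 from 9.10 to 5.39, HOXB2 from 5.68 to 2.58, HOXB5 from 5.58 to 2.35, HOXC10 from 3.88 to 1.24). The count was 12 to 14 when 1 culture of 201B7 or 1 other system was left out, with HOXA2 and HOXA9 added without the FGFC culture. Including undetected genes, 14 became 34 with normexp background correction. The share of all probes passing with normexp is not given here, so this count is not read as a HOX result. The 17 genes higher in differentiated H1 were 17 without any one pre-culture, 14 with normexp and 17 to 19 in the other alternatives. For no FGF against bFGF, 0 genes past the test became 1 with the experiment number as a replicate block (HOXD9, undetected) and 10 with only the 2 arms compared, none of them detected. The share of all probes passing with only the 2 arms is not given here. The replicate block changed no other 4-day count of HOX genes. For the single gene HOXA10, in MEF-CM the count was 0 with the mean over probes and with the first array only, and 0 to 2 over fits that left out 1 culture or system. In H1 in E8 Medium it was 0 with the mean over probes and with the first array, and 0 to 2 when leaving 1 out. In 253G1 it was 0 with the first array and 1 to 2 when leaving 1 out, and in KhES-1 it was 2 with quantile normalization and 1 to 2 when leaving 1 out. With the mean over probes, HOXA10 reversed in 253G1 (0.20) and in MEF-CM (-0.25). The slide as a random block was added after seeing the data. The causes were not tested.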

Other observations

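In 201B7, EMX2, a gene of the forebrain, followed the order of the HOX genes and was at -0.12 in the pre-culture, -1.33 with bFGF and -2.50 with FGFC. EVX1, which lies beyond HOXA13 at the 5′ end of the HOXA cluster, was well above background in all 27 cultures, at 0.79 in differentiated H1.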
